A study of Mus with 6 samples.

Results

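The miRNAs described here are the mature products named miR-297, miR-466, miR-467 and miR-669, any letter and either arm, in small RNA libraries of mouse adipocytes. They were chosen by name, though earlier results of these data were known when the choice was made. The 6 tables hold 62 such names, of which 54 are in all 6 tables. Counted once where names hold identical counts in every library, these are 51 distinct members of 929 known miRNA names in all tables: 4 of miR-297, 23 of miR-466, 8 of miR-467 and 16 of miR-669. Of the 8 names found in only one of the 2 lists of names, none exceeded 2 counts.

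Adipocytes of wild-type C57BL/6 mice were compared between 3 control libraries and 3 libraries of mice or cells labelled as exposed to chronic intermittent hypoxia (CIH), repeated falls in oxygen that serve as a model of sleep apnoea. All 6 share strain and genotype. The labels give no age, sex, fat depot or length of exposure, and do not say whether each library is from its own animal. The design asks which miRNAs differ between the exposed and the control adipocytes.

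miRNAs are short RNAs cut from a hairpin precursor. The 2 strands of the hairpin stem give the 5p and the 3p arm, and a protein complex uses the retained strand to repress messenger RNAs that match its seed near the 5′ end. The miR-297, miR-466, miR-467 and miR-669 families are known from rodents, where tandem repeats in an intron of Sfmbt2, a Polycomb group gene, hold many near-copies of a few hairpins. The gene is imprinted, expressed from the paternal copy in early embryo and placenta, and the cluster is best known there and in embryonic stem cells.

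The RefSeq table of GRCm38.p6 lists 82 precursor genes of these families, of which 72 lie within the span of Sfmbt2 on chromosome 2 (10370440 to 10595253). They run from 10466663 to 10518279, a stretch of 51.6 kb with a median of 296 bases between successive starts, and the span of Sfmbt2 holds 0 other miRNA genes. Within it, 29 precursors are named for miR-669, 24 for miR-466, 14 for miR-467 and 5 for miR-297. Among them are 12 genes of miR-669a, 10 of miR-467a and 8 of miR-466b. The other 10 precursors lie on chromosomes 3, 5, 7, 9, 10, 11 and 13.

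**Figure D1:**
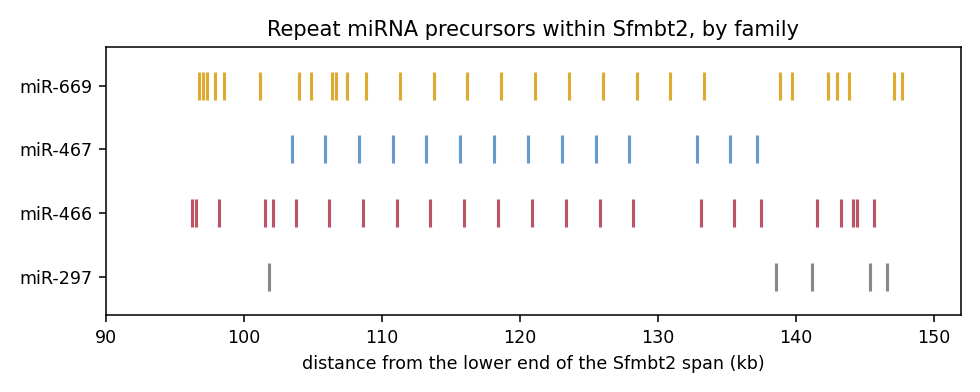
Each tick is one of the 72 precursor genes within Sfmbt2, placed by its distance in kb from the lower end of the gene's span and split by family (rows). The miR-466, miR-467 and miR-669 precursors alternate along the middle of the cluster, while 4 of the 5 miR-297 precursors sit towards its right end.

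Of the 54 names, 52 matched a precursor. The precursors of 44 names all lie within Sfmbt2, 4 names (miR-297a-5p and the 3 miR-466f names) have precursors both inside and outside, and 4 names lie outside only. These 4 are both arms of miR-466i (chromosome 13, 17747473 to 17747593), miR-466j on chromosome 10 and miR-466k (chromosome 3, 85467377 to 85467498). Both arms of miR-466a had no match by name. The members therefore are mostly, not wholly, products of the Sfmbt2 cluster. 14 names have more than 1 precursor, so their counts cannot be assigned to 1 position.

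Counts show how closely the copies resemble each other. miR-467a-5p and miR-467b-5p hold identical counts in every library, as do miR-467a-3p and miR-467d-3p, and miR-466d-5p and miR-466n-5p. Beyond these pairs, miR-466a-3p and miR-466b-3p differ by at most 3 counts in any library, at 348 and 354 counts in all. miR-466f and miR-466f-5p differ by at most 1 count. Levels of such names are uncertain one by one, and each pair is best read as 1 measurement. A name such as miR-467a-5p below stands for all names with its counts.

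Total counts ran from 6291101 to 11264151 per library, and 3 counts, taken as the floor, correspond to 0.266 to 0.477 CPM (counts scaled to equal library totals). Intervals and floors cover counting error only, as no molecular identifiers are described. The libraries numbered 3 stand apart in both groups: their tables list 1186 names against 1053 in the other 4, and 114 of 456 tested miRNAs (25.0%) differed between them and the libraries numbered 1 and 2. Results are therefore given for all 6 libraries, within numbers 1 and 2, and by library number. All 6 miRNAs listed as abundant in adipocytes were present, at 66.2 CPM or more in every library, though none is exclusive to adipocytes. Leukocyte miRNAs summed to 0.363 to 4.29 CPM in control and 0.266 to 3.27 CPM in CIH (4 of 4 listed, with miR-142a-3p at 0 in 4 libraries). In bulk RNA, fewer cells of a type and less RNA per cell cannot be told apart.

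The repeat miRNAs were scarce. Summed over the 51 distinct members they stood at 224, 268 and 351 CPM in control and at 361, 236 and 611 CPM in CIH, listed here and below by library number, which is 0.0224% to 0.0611% of a library. In CPM, the sum was higher in CIH in the pairs numbered 1 and 3 and lower in the pair numbered 2, and the groups overlapped. The mean log2 difference of these sums was 0.43, and 0.08 without CIH library 3. With TMM scaling, which corrects for differences in composition, the mean log2 difference over 6 libraries was 0.26. The TMM factors were 0.636 in control library 3 and 1.11 in CIH library 3, so the rise in that pair rests on the CPM scale. Of the 51 members, 27 reached 3 counts in every library, 25 averaged at least 1 CPM and 6 at least 10 CPM, while 15 had under 10 counts over all libraries together.

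One member gave 45.4% to 68.4% of the member counts in a library. miR-467a-5p, with miR-467b-5p, stood at 102, 161 and 240.1 CPM in control and 194, 121 and 402 CPM in CIH. In CPM it was highest in CIH library 3 and lowest in control library 1, and the remaining control and CIH values interleaved. Members of the miR-467 family have been reported to target thrombospondin 1 and lipoprotein lipase. miR-467a-5p took 45.4% of member counts in control library 1 (exact 95% interval 42.8% to 48.1%), 60.0% in control library 2, 53.7% and 51.3% in CIH libraries 1 and 2, and 68.4% and 65.9% in the control and CIH libraries numbered 3.

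**Figure D2:**
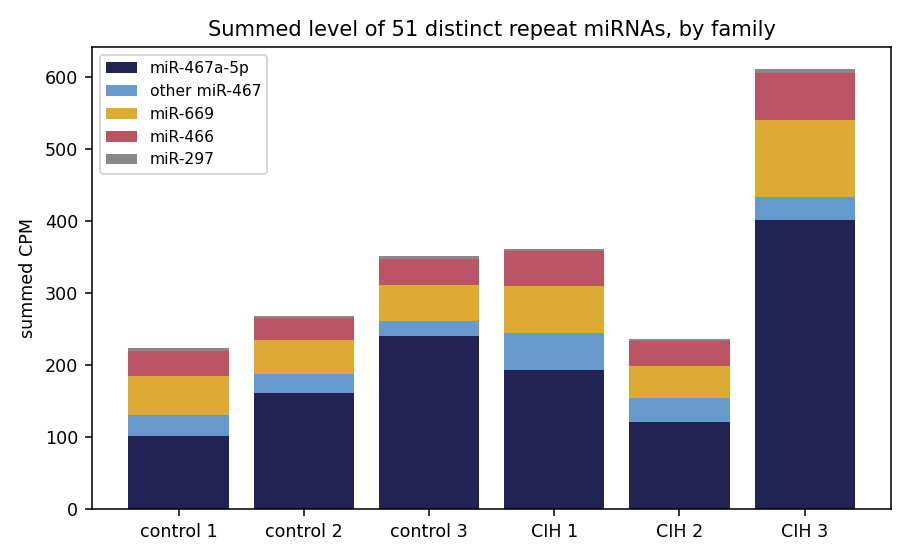
Bars give the summed CPM of the 51 distinct members in each of the 6 libraries, stacked by family, with miR-467a-5p apart from the other miR-467 members. miR-467a-5p is the largest block in every library, and CIH library 3 has the tallest bar, at 611 CPM.

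By family without miR-467a-5p, the miR-669 members summed to 54.7, 47.3 and 50.7 CPM in control and 64.3, 45.5 and 107.8 CPM in CIH. The miR-466 members summed to 35.3, 30.6 and 36.0 CPM in control and 49.7, 34.1 and 65.3 CPM in CIH. The other miR-467 members summed to 28.5, 27.2 and 21.2 CPM in control and 51.1, 32.8 and 30.7 CPM in CIH. In CPM, every CIH library lay above every control library in this last sum. After TMM scaling the groups overlapped, at 23.7, 24.7 and 33.3 in control and 44.5, 34.98 and 27.7 in CIH, a scaling of this sum added after seeing the data. In CPM, the miR-466 and miR-669 sums overlapped at CIH library 2. The 4 miR-297 members together stayed between 2.18 and 4.62 CPM.

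The next most abundant members belong to miR-669 and miR-467. miR-669c-5p, from a precursor on chromosome 2 (10509296 to 10509404), stood at 16.2, 14.7 and 17.6 CPM in control and 21.3, 10.8 and 37.2 CPM in CIH. CIH library 2 was the lowest of all and CIH library 3 the highest, so the groups overlapped. miR-669a, reported to target the muscle factor MyoD, gave reads from both arms. Its 5p arm stood at 15.9, 12.7 and 9.56 CPM in control and 19.4, 13.6 and 28.1 CPM in CIH. The 3p arm stood at 6.99, 7.92 and 14.3 CPM in control and 9.0, 8.17 and 24.3 CPM in CIH. In CPM, both arms were higher in CIH in each numbered pair. After TMM scaling this held for the 5p arm and not for the 3p arm. Across groups, the CPM values of both arms still overlapped. For the 5p arm control library 1 exceeded CIH library 2, and for the 3p arm control library 3 exceeded CIH libraries 1 and 2.

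miR-467c-5p (precursor on chromosome 2, 10473931 to 10474027) stood at 11.8, 10.2 and 4.60 CPM in control and 24.9, 11.9 and 5.24 CPM in CIH. miR-467e-5p (10505721 to 10505807) stood at 10.2, 9.67 and 5.93 CPM in control and 13.1, 12.1 and 10.7 CPM in CIH. These are the 5p arms of single-copy precursors in the same cluster. For miR-467e-5p every CIH library exceeded every control library, while for miR-467c-5p the low libraries numbered 3 made the groups overlap. miR-467d-5p (10507630 to 10507714) was lower, at 3.66, 3.39 and 0.363 CPM in control and 7.91, 4.38 and 1.42 CPM in CIH, and control library 3 held only 3 counts of it.

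Among the miR-466 members, miR-466c-5p led the 5p arms, at 10.5, 7.0 and 4.48 CPM in control and 12, 9.26 and 5.50 CPM in CIH. miR-466b-5p stood at 5.40, 6.07 and 3.15 CPM in control and 7.91, 3.88 and 3.91 CPM in CIH. Both were lowest in a library numbered 3 and overlapped between groups. The 3p product miR-466b-3p, near-identical in counts to miR-466a-3p, stood at 2.38, 1.85 and 7.51 CPM in control and 4.09, 3.88 and 16.9 CPM in CIH. It was highest in the libraries numbered 3 and higher in CIH in each numbered pair.

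miR-669o-5p stood at 6.2, 4.84 and 1.69 CPM in control and 7.09, 4.48 and 4.08 CPM in CIH, and miR-467a-3p at 2.86, 3.91 and 9.93 CPM in control and 4.63, 4.18 and 12.8 CPM in CIH. The libraries numbered 3 were the lowest for the first and the highest for the second. All mature miRNAs are of similar length, so these CPM values can be set beside each other without a length correction, but sequence-dependent capture in library preparation still separates counts from molecules.

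**Figure D3:**
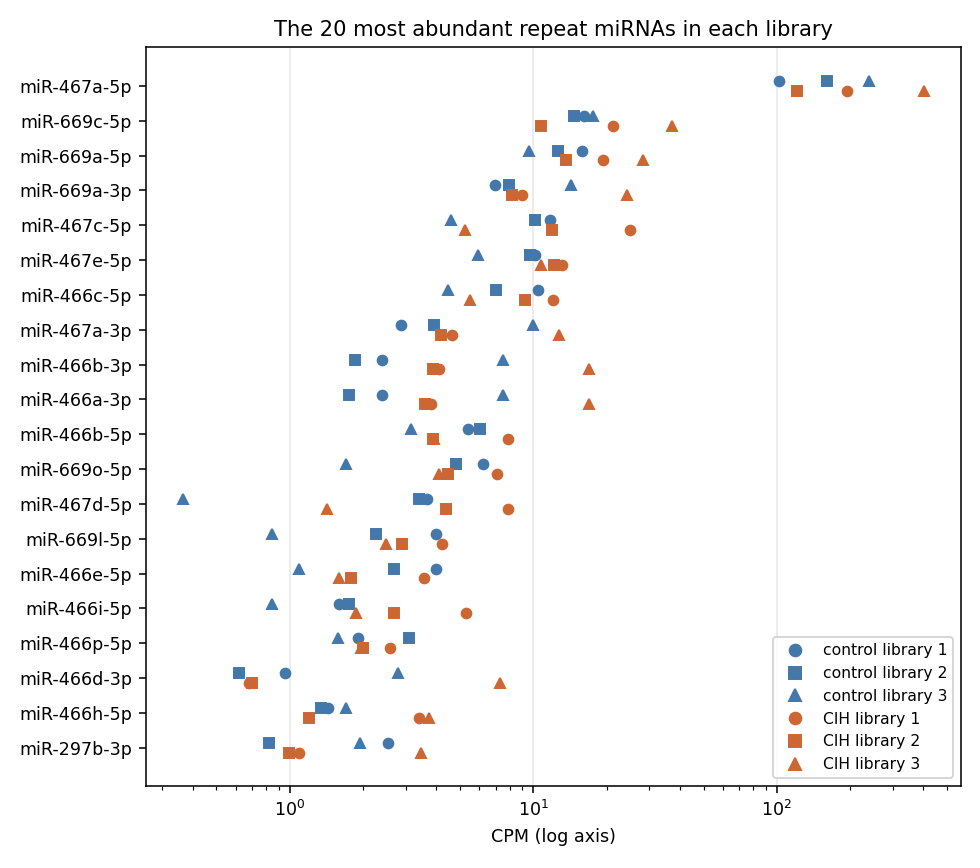
Points give the CPM (log axis) of the 20 members with the highest mean, in each control (blue) and CIH (orange) library, with the library number as the symbol. miR-467a-5p stands above all others, and the triangles of the libraries numbered 3 lie at the right end of each colour for the 3p members of miR-466, miR-467 and miR-669, and mostly at the left end for 5p members of miR-466, such as miR-466c-5p at 4.48 and 5.50 CPM.

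In the comparison of CIH and control over all 6 libraries, no member was called. Of the 23 distinct members that passed the filter on low counts, edgeR's quasi-likelihood test called 0 (Benjamini-Hochberg adjusted p under 0.05), where it called 0% of the 456 miRNAs tested. The smallest adjusted p of a member was 0.885, and none had a raw p under 0.05. Both DESeq2 and limma-voom gave 0 calls of members too, and 0 members at a raw p under 0.05. The members' median log2 difference was 0.22, beside 0.04 over all miRNAs tested, and 15 of 23 values were above 0, beside 53.5% of all. The median was 0.04 without CIH library 3.

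CPM ranges that did not overlap were found for 2 of the 23 members, miR-466i-5p and miR-467e-5p, both higher in CIH, where 11.2% of all miRNAs tested had such ranges, 7.46% higher and 3.73% lower. The members' share, 2 of 23, is near the background. miR-466i-5p, whose precursor lies outside Sfmbt2, had the smallest p of the members. It stood at 1.59, 1.75 and 0.847 CPM in control and 5.32, 2.69 and 1.86 CPM in CIH (10, 17 and 7 counts against 39, 27 and 21), a log2 difference of 1.09 (SE 0.57, adjusted p = 0.885 by edgeR). For miR-467e-5p the log2 difference was 0.36 (SE 0.43, adjusted p = 0.953 by edgeR). For the abundant miR-467a-5p it was 0.12 (SE 0.68), and its sign turned, to -0.011, with size factors of the DESeq2 type.

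The other members with the smallest p on the higher side were miR-669a-5p (log2 difference 0.51, SE 0.44), miR-467d-5p (0.90, SE 0.81), miR-466h-5p (0.61, SE 0.62) and miR-467c-5p (0.57, SE 0.61). Leaving out a library moved miR-467c-5p to between 0.047 (without CIH library 1) and 0.97 (without CIH library 3), and miR-669a-5p to between 0.24 (without CIH library 3) and 0.68 (without CIH library 2). miR-466h-5p, reported to promote apoptosis in starved ovary cell cultures, stood at 1.43, 1.34 and 1.69 CPM in control and 3.41, 1.19 and 3.73 CPM in CIH. CIH library 2 lay below all controls there. On the lower side miR-669e-5p stood at 1.43, 1.44 and 1.69 CPM in control and 0.409, 0.996 and 1.69 CPM in CIH, a log2 difference of -0.76 (SE 0.71). By p, miR-297b-5p (-0.43), miR-466k (-0.24), miR-466e-5p (-0.22) and miR-466p-5p (-0.16) came next on that side. Of the 8 members below 0, the remaining ones were miR-297b-3p (-0.16), miR-467a-3p (-0.089) and miR-466b-5p (-0.044). None of these differences was past the test's threshold.

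Within the libraries numbered 1 and 2, 21 distinct members were tested and again 0 were called by edgeR at an adjusted p under 0.05, where 9.37% of the 459 miRNAs tested were called, 4.14% higher and 5.23% lower. At an unadjusted p under 0.05 there were 5 members by edgeR, 3 by limma-voom and 1 by DESeq2, and the other tools called 0 as well. DESeq2 gave an adjusted p to 18 members, and its 1 is counted among those only. Over all miRNAs tested, 99 of 459 were at such a p by edgeR, 93 by limma-voom and 74 by DESeq2. The 74 include miRNAs without an adjusted p, so the DESeq2 counts are not on the same footing. The members' share by edgeR, 5 of 21, is close to that background. All 5 were higher in CIH, as were 53 of the 99. The members' median log2 difference was 0.35, beside -0.03 over all miRNAs tested, and 17 of 21 values were above 0, beside 47.7% of all. With total counts alone as the scaling these medians were 0.21 and -0.17. Under that scaling 1 member stayed at an unadjusted p under 0.05, where 85 of all 459 miRNAs did. Of the called miRNAs, 7 of 34 were then higher in CIH instead of 19 of 43.

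The 5 members were led by miR-466i-5p, with a log2 difference of 1.34 (SE 0.50, adjusted p = 0.0939 by edgeR). The others were miR-467c-5p at 0.85 (SE 0.36, adjusted p = 0.153), miR-466b-3p at 1.07 (SE 0.47, adjusted p = 0.169), miR-467d-5p at 0.90 (SE 0.40, adjusted p = 0.175) and miR-466a-3p at 1.0 (SE 0.48, adjusted p = 0.218). As miR-466a-3p and miR-466b-3p nearly share their counts, these are 4 separate measurements. miR-467a-5p had a log2 difference of 0.36 (SE 0.26), with CIH library 1 above both controls and CIH library 2 between them. Below 0 were miR-669e-5p at -0.79 (SE 0.86), miR-466e-5p at -0.20, miR-466k at -0.085 and miR-466p-5p at -0.034. Without CIH library 2, 3 members of 21 were called, miR-466i-5p, miR-467c-5p and miR-467d-5p, where 97 of all 482 miRNAs tested were. That fit rests on a single CIH library, whose spread is assumed to equal that of the controls.

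CPM levels of 8 of the 21 members tested were higher in both CIH libraries than in both controls of this subset, where 17.4% of all miRNAs tested were. These were miR-466a-3p, miR-466b-3p, miR-466i-5p, miR-467a-3p, miR-467c-5p, miR-467d-5p, miR-467e-5p and miR-669a-3p. The first 2 nearly share their counts and are best read as 1 measurement. 2 members, miR-466k and miR-669e-5p, were lower in both, where 32.0% of all were. 4 of the 8 are miR-467 products, from 5 miR-467 members tested, and the fifth is miR-467a-5p. The higher ranges rested on small gaps in some cases, such as 7.92 CPM in control library 2 and 8.17 CPM in CIH library 2 for miR-669a-3p.

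By library number, CIH was compared with the control of the same number on the CPM scale, for members with at least 3 counts in both libraries. In the pair numbered 1, 20 of 27 members were higher in CIH, where 43.9% of all known names were. In the pair numbered 2 it was 18 of 29, where 37.4% of all were, and in the pair numbered 3 it was 27 of 34, where 70.5% of all were. The members' median log2 ratios were 0.36, 0.11 and 0.65, beside -0.11, -0.17 and 0.74 for all known names. The members' median thus lay above that of all names in the pairs numbered 1 and 2 and slightly below it in the pair numbered 3. After TMM scaling, and over the 27 members with 3 counts in every library, the medians were 0.43, 0.33 and 0.03, beside 0.0016, 0.08 and 0.01 for all known names, so the members were not below in the pair numbered 3 and were near 0 there. Each pair has 1 library per group, so none of these ratios has a spread of its own.

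Of the 27 members with at least 3 counts in every library, 13 were higher in CIH in all 3 pairs, where 21.1% of 436 known names were. After TMM scaling, which corrects for differences in composition, it was 10 of 27, where 18.1% of all were. Both near-identical pairs, miR-466a-3p with miR-466b-3p and miR-466f with miR-466f-5p, are among the 13. The first of these pairs is also among the 10. Each pair is best read as 1 measurement, so separate measurements are fewer than these counts. The 13 include 4 of the 5 tested miR-467 members, namely miR-467a-3p, miR-467c-5p, miR-467d-5p and miR-467e-5p. miR-467a-5p itself had log2 ratios of 0.93, -0.41 and 0.74. After TMM scaling miR-467d-5p and miR-467e-5p stayed among the 10, and miR-467a-3p and miR-467c-5p did not. 1 member of 27, miR-669e-5p, was lower in CIH in every pair on the CPM scale, where 43 of 436 known names were. Its log2 ratios were -1.81, -0.53 and -0.01, the last of them near 0.

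**Figure D4:**
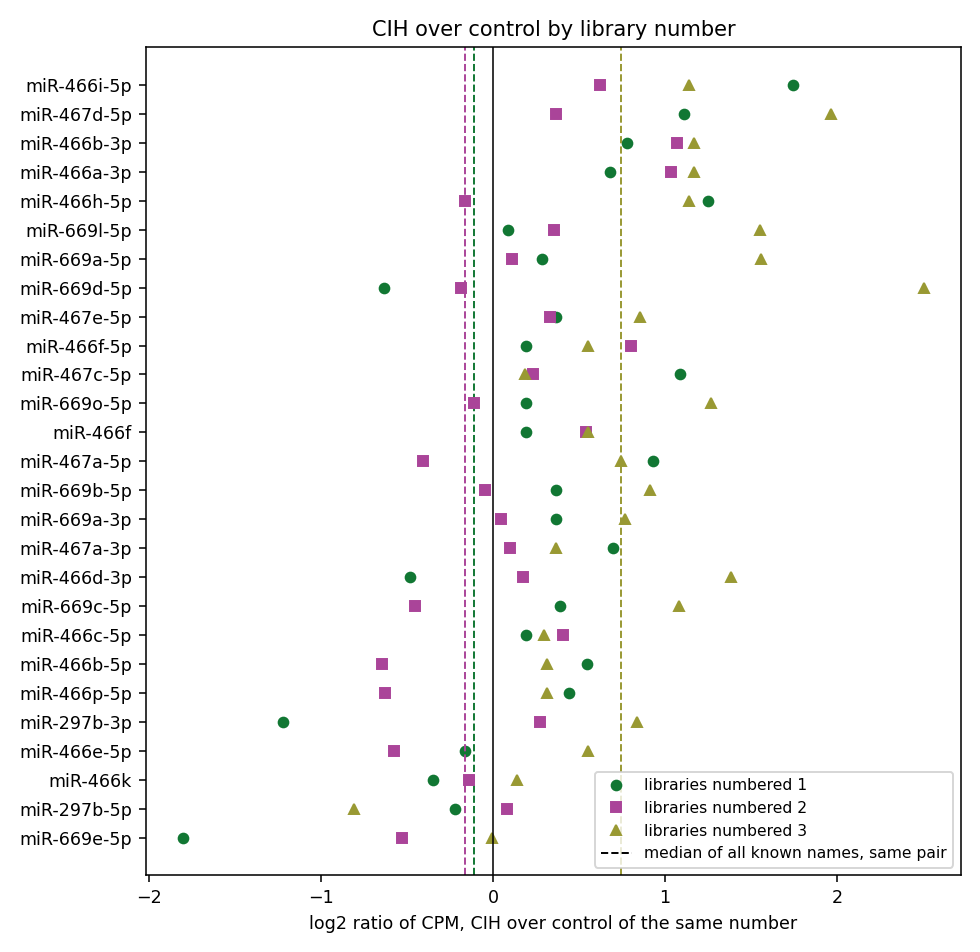
Points give the log2 ratio of CPM, CIH over control of the same number, for the 27 members with at least 3 counts in every library, sorted by their mean. Dashed lines mark the median of all known names in each pair (-0.11, -0.17 and 0.74). Most points of the pair numbered 3 scatter around their own dashed line, while most of the pair numbered 1 lie to the right of theirs.

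The widest ratios came from low counts. miR-669d-5p went from 4 to 31 counts in the pair numbered 3 (log2 ratio 2.51) while its log2 ratios in the other pairs were -0.64 and -0.18. miR-669e-5p went from 9 to 3 counts in the pair numbered 1. Over 2-fold ratios on the higher side were found for 4 of 27 members in the pair numbered 1, 2 of 29 in the pair numbered 2 and 12 of 34 in the pair numbered 3, against 9.42%, 4.49% and 39.9% of all known names. The 2 in the pair numbered 2 were miR-466a-3p and miR-466b-3p, which nearly share their counts. On the lower side the counts were 2, 0 and 0, against 12.4%, 11% and 12.6% of all. Whether the members differ from other names in this was not tested.

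Some members differed between the libraries numbered 3 and the others. With group in the model, edgeR's test called 6 of 23 distinct members between these sets of libraries, where 25.0% of all 456 miRNAs tested were called. In the libraries numbered 3, 5 of them were higher, where 11.4% of all were, and 1 was lower, where 13.6% of all were. The members' share is close to that background. Within the members the values split by arm. Of 5 tested 3p members all 5 had values above 0 and 4 were called higher, with a median of 1.92. Of 17 tested 5p members 6 had values above 0, 1 was called higher and 1 lower, with a median of -0.11.

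Over all miRNAs tested, the 209 names of 3p arms had a median of -0.25 with 28 called higher and 26 lower. The 218 names of 5p arms had a median of -0.06 with 21 called higher and 33 lower. Whether the members differ from other 3p names was not tested.

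The 4 called 3p names were miR-466a-3p (log2 difference 2.40, SE 0.35), miR-466b-3p (2.33, SE 0.35), miR-467a-3p (1.92, SE 0.38) and miR-669a-3p (1.59, SE 0.30), with adjusted p-values by edgeR of 0.00961 for the miR-466 names and 0.0177 for the other two. The miR-466 names nearly share their counts, so these are 3 separate measurements. In each of them both libraries numbered 3 exceeded all 4 others. miR-467a-5p was the 5p member called higher (1.5, SE 0.34, adjusted p = 0.0239 by edgeR). miR-467d-5p was called lower (-2.25, SE 0.47, adjusted p = 0.0180 by edgeR), at 3 and 16 counts in the libraries numbered 3 against 23 to 58 in the others. With total counts as the scaling 3 members stayed called, miR-466a-3p, miR-466b-3p and miR-467d-5p. Under that scaling 17 of 60 called miRNAs were higher instead of 52 of 114, while size factors of the DESeq2 type gave 59 of 106. Calls over all miRNAs depended on single libraries. Without control library 1, 0 of 27 members and 2 of all 483 miRNAs tested were called, and without CIH library 2, 0 of 24 members and 2 of 470. Without control library 2, 3 of 24 members and 30 of 471 miRNAs were called, and without CIH library 1, 3 of 27 and 34 of 483. In both of these the members were miR-466a-3p, miR-466b-3p and miR-466d-3p. Without control library 3 the call counts were 8 of 25 members and 253 of 484 miRNAs, and without CIH library 3, 7 of 21 and 223 of 469.

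**Figure D5:**
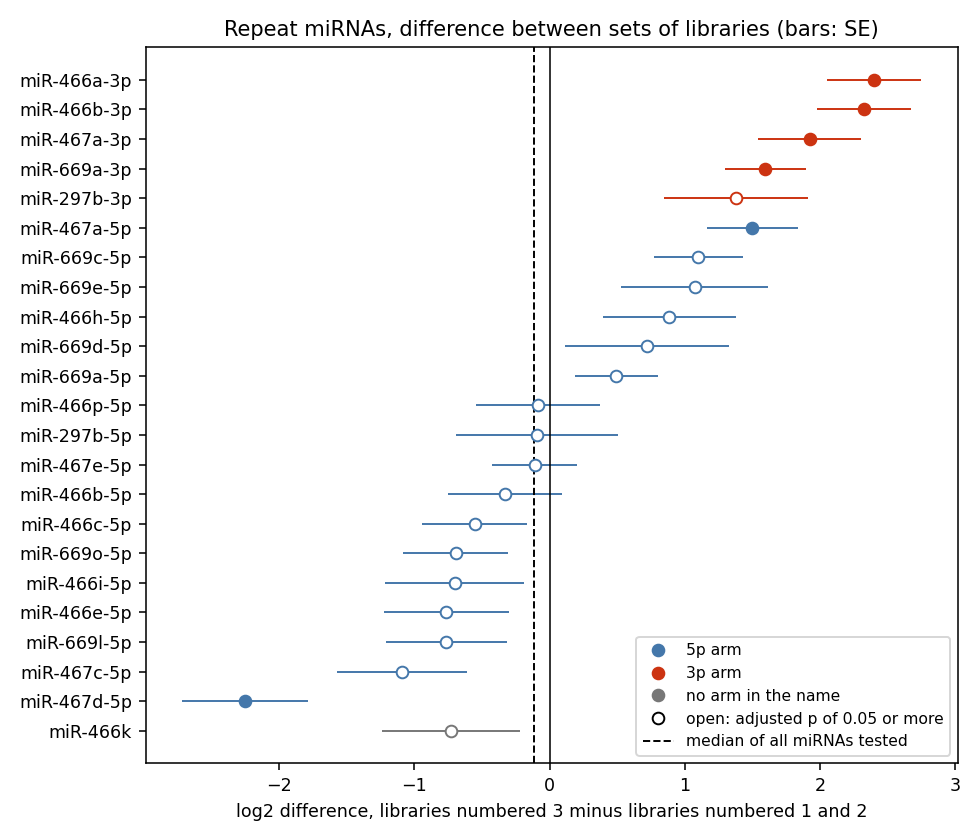
Points give the log2 difference of the 23 tested members between the libraries numbered 3 and those numbered 1 and 2, with group in the model. Bars are standard errors, filled points have an adjusted p under 0.05, and the dashed line is the median of all miRNAs tested (-0.11). The 3p members (red) all lie above 1.3, while 11 of 17 5p members (blue) lie below 0.

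Counts of both arms were split in the same direction. Over all members, 3p names held 6.73% to 10.3% of the arm-named counts in the libraries numbered 1 and 2, against 14.1% and 14.4% in those numbered 3. Leaving out miR-467a-5p, 3p names held 16.4% and 17.0% of the arm-named member counts in control libraries 1 and 2, and their CIH counterparts gave 16.5% and 21.5%. In those numbered 3 they held 44.9% in control (exact 95% interval 41.6% to 48.2%) and 42.3% in CIH (40.3% to 44.4%). With near-identical names counted once the range was 14.4% to 18.6% in numbers 1 and 2, against 40.9% and 37.2%. With and without miR-467a-5p, both libraries numbered 3 lay above the other 4.

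Single hairpins differed in this. The ratio of miR-466b-3p to miR-466b-5p was 0.441 and 0.305 for control libraries 1 and 2, 0.517 and 1.0 in CIH libraries 1 and 2, and 2.38 and 4.32 in the control and CIH libraries numbered 3. For miR-669a the 3p to 5p ratio was 0.440 and 0.626 in control and 0.465 and 0.599 in CIH libraries 1 and 2, and 1.49 and 0.864 in the libraries numbered 3. For miR-467a, whose 5p arm dominates, it stayed between 0.0239 and 0.0414 in all 6 libraries and did not follow the library number, with CIH library 3 at 0.0318 and CIH library 2 at 0.0345. For miR-297b the ratio was 2.0, 0.727 and 1.78 in control libraries 1, 2 and 3, and did not follow the library number there. In CIH it was 1.0, 0.833 and 5.57, with CIH library 3 the highest of all 6. These ratios rest on 7 to 39 counts per arm and library. Of 14 letters with both arms listed, taking shared 5p counts once, the 5p arm had more counts in 7 and the 3p arm in 7. miR-467b and miR-466n, whose 5p counts are those of miR-467a-5p and miR-466d-5p, were left out. Both had more 5p counts (11355 against 2, and 14 against 3). miR-467d is among the letters with more 3p counts, although its 3p counts are those of miR-467a-3p. As the copies share sequence, an arm's counts may stem from other letters than its own.

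miR-466d-3p, which failed the filter, followed the 3p pattern, with 6, 6 and 23 counts in control and 5, 7 and 82 counts in CIH. miR-297b-3p stood at 2.54, 0.823 and 1.94 CPM in control and 1.09, 0.996 and 3.46 CPM in CIH and was not called (log2 difference 1.38, SE 0.53, adjusted p = 0.103 by edgeR).

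Levels of other miRNAs also moved with the library number. Those listed as abundant in adipocytes (6 of 6 listed) summed to 598280 and 318587 CPM in the control and CIH libraries numbered 3, against 154758 to 234345 CPM in the others. Most of that sum was miR-148a-3p, at 493520 and 249065 CPM in these, against 28100 to 55275 CPM in the others. miR-30c-5p was also higher in both libraries numbered 3. By contrast, miR-143-3p was lower in both, at 57127 and 55147 CPM against 90732 to 133754 CPM, as were miR-103-3p and miR-107-3p. miR-378a-3p stood at 38662 and 5624 CPM, against 25835 to 43593 CPM. The listed adipocyte miRNAs thus did not move one way. The leukocyte miRNAs were lowest in the libraries numbered 3, at 0.363 and 0.266 CPM. Epithelial miRNAs (6 of 6 listed) summed to 76.3 to 407 CPM in control and 18.6 to 169 CPM in CIH, lowest in the library numbered 3 of each group, with miR-141-3p at 0 in both. Stromal miRNAs (3 of 3 listed) did not move one way: control library 3 was the lowest of all at 3786 CPM and CIH library 3 the highest at 46441 CPM, with the others from 7859 to 11525 CPM. Their part in the arm split was not tested.

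The miR-290 to miR-295 cluster, the main miRNA cluster of mouse embryonic stem cells, offers a comparison because the Sfmbt2 repeats are also known from those cells. Its 12 names summed to 21.5, 19.4 and 53.0 CPM in control and 18.7, 11.7 and 0.0888 CPM in CIH. The repeat members' summed CPM, without TMM scaling, was highest in CIH library 3. In that library the miR-290 to miR-295 cluster was below the floor of 0.266 CPM, with miR-291a-3p, miR-292a-3p and miR-294-3p at 0. Of its 5 tested names 0 were called over 6 libraries, with a median log2 difference of -2.26. Within the libraries numbered 1 and 2, 1 of the 5 fell in CIH (adjusted p = 0.0103 by edgeR) and the median was -0.25. The imprinted Dlk1-Dio3 cluster on chromosome 12, another large set of placental miRNAs, summed over 49 names to 183, 113 and 145 CPM in control and 147, 133 and 108 CPM in CIH. Of its 9 tested names 0 were called, with a median log2 difference of -0.34. Whether the repeat members differ from either cluster was not tested.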

How the data were processed

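Small RNA was sequenced on an Illumina instrument from 3 control and 3 CIH libraries, per the labels' protocols. Each deposited table holds counts per miRNA, whole numbers whose totals differ, although 3 headers name them FPKM. Without giving a role, the submitters' processing notes list GRCm38, DESeq 1.8.3 and featureCounts 1.5.0-p3. The aligner, the miRBase release and the treatment of reads matching several names, which decides how copies share counts, were not given in the sources at hand. Predicted names (29 and 70 in the 2 lists) were left out, and 0 columns of other samples were present.

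CPM values are deposited counts scaled by the file total. Known names in all tables were tested with edgeR 4.0.16 in R 4.3.3 (robust quasi-likelihood F test, TMM, filterByExpr by group, Benjamini-Hochberg at 0.05 over all miRNAs), with group as the only term, or group and library set. The filter does not use the set. DESeq2 1.42.0 and limma 3.58.1 (voom) were alternatives, with the scalings, filters and left-out libraries of the closing section. Other steps used scipy 1.17.1, numpy 2.4.6, pandas 2.3.3 and matplotlib 3.10.9 under Python 3.11.15. The fits were tested on simulated counts. Binomial intervals are Clopper-Pearson at 95%. Positions come from RefSeq, GRCm38.p6. Gene lists that need mature sequences were not used here.

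The members and lists were chosen with earlier results of these data known. Members named with values are the 12 most abundant, those called in any fit, and, for both CIH comparisons, up to 5 members per direction ranked by p; miR-466d-3p, miR-669d-5p and miR-297b-3p were added after their values were seen. Equal library numbers correlated in their deviations from the group means (0.35, 0.37 and 0.42 over 332 miRNAs, each over 0.1) and were taken as pairs in the blocked fit, although control library 1 and CIH library 2 correlated at 0.46. No 2 libraries of a group agreed within sampling noise. No label says that each library is a separate animal or culture. The p-values then measure only how these libraries vary, possibly for technical reasons.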

Additional observations from a re-analysis of the deposited data

How the results depend on the processing

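Depth limits what can be said of single members: 27 of 51 held 3 or more counts in every library, and for the rest a difference was mostly not detectable. Over 6 libraries the count of called members and of called miRNAs stayed at 0 under each of the 16 alternatives run. The replicate block changed no call of a member: 0 were called over 6 libraries (median log2 difference 0.25) and 0 within numbers 1 and 2 (median 0.36), with 48 instead of 43 miRNAs called there. The members' median over 6 libraries was 0.12 with size factors of the DESeq2 type, 0.12 with DESeq2, 0.48 with total counts, and 0.035 to 0.49 with each library left out. Within numbers 1 and 2 it was 0.21 with total counts, 0.45 at a mean of 10 CPM or more, and 0.22 to 0.52 with each library left out.

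Within numbers 1 and 2, a filter at a mean of 10 CPM, which tests fewer miRNAs, left 16 calls, and there were 65 at a threshold of 0.1, and 9 to 97 with each library left out. Of the members 1 was called at 0.1 (miR-466i-5p), and 0 to 3 with each library left out. Between the sets of libraries, total counts gave 60 miRNAs and 3 members, the filter at 10 CPM gave 2 of 6 members and 83 of 257 miRNAs, and leaving out each library gave 2 to 253 miRNAs and 0 to 8 members. All 6 members called there kept their sign in every alternative that tested them. The summed level kept its sign, at 0.08 to 0.76 with each library left out.

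Signs over 6 libraries turned both for members near 0 and for miR-466b-3p (0.59) and miR-466a-3p (0.56). miR-467a-5p was at -0.011 with both size factors of the DESeq2 type and DESeq2, -0.029 with the filter at 10 CPM, and -0.15, -0.051 and -0.47 without control library 1, control library 2 and CIH library 3. miR-669a-3p was at -0.0016, -0.0031 and -0.032 in the first 3 of these and -0.10, -0.11 and -0.53 without those libraries. miR-467a-3p was at 0.37 with total counts, 0.30 with limma-voom, 0.19 with the replicate block, and 1.19, 0.28 and 0.15 without control library 3, CIH library 1 and CIH library 2. miR-466b-5p was at 0.098 with total counts and 0.057, 0.062 and 0.14 without control library 2, CIH library 2 and CIH library 3. Without CIH library 3, miR-669c-5p was at -0.29, miR-466b-3p at -0.42 and miR-466a-3p at -0.52. The other ends of the ranges with a library left out were, without control library 3, 0.95 for miR-467a-5p, 0.68 for miR-669c-5p, 1.0 for miR-669a-3p, 2.09 for miR-466b-3p and 2.10 for miR-466a-3p. They were -0.77 for miR-467a-3p without CIH library 3 and -0.31 for miR-466b-5p without CIH library 1. The cause was not tested.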
